A study of Mus musculus with 24 samples.

Results

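The genes described here are 42 that carry out or prepare DNA replication and are, for the most part, known targets of E2F transcription factors. They were chosen by symbol, and all 42 were found among the 24421 genes of the count table. Their RNA was measured by bulk RNA sequencing of sciatic nerve from mice of the genotype Nf1 flox/flox PostnCre+, with the tumour stage labelled plexiform neurofibroma (a benign growth within nerves). All groups share that genotype: both Nf1 alleles are floxed, and Cre recombinase is driven by Postn, so that Nf1, a brake on RAS, is lost only in cells that have used that promoter. Treatment lasted 1 week, with 6 libraries in each of 4 groups: vehicle, LY3214996 (an inhibitor of ERK1/2, here ERKi), abemaciclib (an inhibitor of CDK4/6, here CDKi), and LY3214996 with abemaciclib together (combination). The labels give no age and do not tie each library to an animal of its own, so the p-values reflect the spread among these samples and no more. In whole nerve, fewer cells of a type and less RNA per cell cannot be told apart.

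A cell enters S phase when cyclin D with CDK4 or CDK6, and then cyclin E with CDK2, phosphorylate RB, which releases activating E2F factors. These switch on the genes of replication: the origin recognition complex, Cdc6 and Cdt1 load the MCM helicase, Cdc45 and GINS activate it, polymerases copy the strands on the sliding clamp Pcna, and other enzymes supply nucleotides and chaperone new histones. A CDK4/6 inhibitor acts upstream of this step, and ERK signalling acts upstream again through D cyclins. A second wave of genes, active in G2 and mitosis, is driven through CHR promoter elements instead, and E2f7 and E2f8 are themselves E2F targets that later repress the S phase genes. Schwann cells and fibroblasts of adult nerve divide rarely, so transcripts of dividing cells are a small part of the RNA.

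The promoters of these genes more often held E2F letters, and those of mitosis genes CHR letters, a description with no test. RefSeq promoter windows of 300 bases, from 250 before to 50 after each start (build GRCm38.p6), were at hand for 36 of the 42 genes, without Mcm4, Gins1, Gins2, Prim2, Pole and Ccne2. An E2F match was any of TTTCGCGC, TTTGGCGC, TTTCCCGC or TTTGCCGC on either strand. It was found in 16 of 36 genes (44.4%), against 4.34% of the 11475 tested genes with a window and 1 of 25 genes of a mitosis list. A CHR match (TTTGAA or TTCGAA, either strand) was found in 8 of 36 (22.2%), against 16.2% of tested genes and 20 of 25 mitosis genes (80%). Of the helicase genes, Mcm5 and Mcm6 are shown, with 2 and 3 E2F matches in their windows. Mcm3 and Mcm7 also held 2, while Mcm2, Mcm10 and Cdc45 held 0. Rfc3 and E2f8 are shown for their values under the combination. Among the 41 replication genes tested, Rfc3 had the smallest p there and E2f8 the lowest log2 fold change. All printed stretches run 5′ to 3′ on the gene's strand. Capitals mark E2F matches in the first 3 and the CHR match, on the reverse strand, in E2f8:
Mcm5: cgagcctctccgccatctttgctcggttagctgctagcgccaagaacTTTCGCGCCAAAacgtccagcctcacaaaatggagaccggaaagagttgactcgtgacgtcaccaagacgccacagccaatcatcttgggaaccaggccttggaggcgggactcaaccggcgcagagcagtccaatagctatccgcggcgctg
Mcm6: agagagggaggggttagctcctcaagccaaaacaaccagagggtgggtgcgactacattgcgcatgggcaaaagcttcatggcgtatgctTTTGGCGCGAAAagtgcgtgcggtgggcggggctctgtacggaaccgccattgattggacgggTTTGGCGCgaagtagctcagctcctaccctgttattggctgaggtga
Rfc3: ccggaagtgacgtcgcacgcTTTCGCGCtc
E2f8: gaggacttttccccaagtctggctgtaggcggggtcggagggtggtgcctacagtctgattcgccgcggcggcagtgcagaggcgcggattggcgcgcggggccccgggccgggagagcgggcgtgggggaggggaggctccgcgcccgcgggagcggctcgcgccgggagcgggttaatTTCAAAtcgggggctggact

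The Mcm5 stretch is chr8:75109309-75109508 on the plus strand and holds 2 overlapping matches, 1 on each strand. The Mcm6 stretch is chr1:128359706-128359905 on the minus strand and holds 3, of which 2 overlap. Both lie outside annotated exons. The Rfc3 stretch is chr5:151651209-151651238 on the minus strand, just upstream of the RefSeq start and inside the first exon of the GENCODE model of the gene. The E2f8 stretch is chr7:48881597-48881796 on the minus strand, and its window holds none of the E2F letters searched. Over whole windows of 300 bases, Rfc3 holds 2 E2F and 2 CHR matches, and E2f8 1 CHR match. The Uhrf1 windows hold 1 E2F match and 0 CHR matches. A match is a run of letters and not a measured binding site.

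Libraries held 5391543 (vehicle 3) to 42321550 counts (vehicle 2), and a count of 3, the floor used here, was 0.536 and 0.0697 CPM (counts scaled to a common library size) in those libraries. The Schwann cell transcript Sox10, a lineage factor, was present in every library, at 129 to 580 CPM and lowest in ERKi 3. The 3 libraries ERKi 3, CDKi 1 and CDKi 3 held the liver transcript Alb at over 100 CPM, and 6 (vehicle 1, vehicle 5, CDKi 3, CDKi 5, combination 3 and combination 5) had a mean of 10 neuron genes under 6 log2 CPM. All other libraries, the larger number, had that mean between 7.28 (vehicle 4) and 9.63 (ERKi 3). No ERKi library was among the 6. Nf1 itself, floxed in all groups, was at 290 to 447 CPM, which checks no label.

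Replication transcripts were scarce. The 42 genes together took 0.0264% to 0.0341% of a library's counts, and their summed level was 265 to 374 CPM. Per kilobase of exon, the median level over 24 libraries was highest for Pcna, the sliding clamp (9.54 CPM per kb), then for the helicase subunits Mcm4 (6.73) and Mcm7 (4.80), for Dut, which destroys dUTP (3.87), and for Pola1, the catalytic subunit of the primase-coupled polymerase (3.37). The clamp and lagging-strand genes had the highest median of any role, 2.35 CPM per kb over 6 genes. The lowest levels per kilobase were those of Orc1 (0.0536), a subunit of the origin recognition complex, of the repressor E2f7 (0.0915) and of Mcm10, which helps to activate the helicase (0.108).

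Counting error was largest for the scarce genes. Orc1 had a median raw count of 3, was under 3 counts in 7 of 24 libraries and at 0 in 2, and was the only one of the 42 genes that did not pass the count filter. Its medians were 0.266, 0.183, 0.139 and 0.208 CPM in vehicle, ERKi, CDKi and combination. In that order 0, 2, 3 and 2 libraries were under 3 counts. Another 10 genes had a median count under 30: Cdc6, Mcm10, Gins1, Gins2, Rrm2, Tk1, Chaf1b, Uhrf1, E2f7 and E2f8 (this limit was set after the values were seen). Tk1, the salvage kinase for thymidine, had a median count of 15.5 and was at 0 in combination 5. At the other end Rrm1, the large subunit of ribonucleotide reductase, had a median count of 600. The coefficient of variation (CV) expected from counting alone ran from 3.95% for Rrm1 to 47.4% for Orc1, while the CV between libraries of a group ran from 13.3% for Pola1 to 88.4% for Orc1. In all 42 genes the spread between libraries was larger than counting error.

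**Figure D1:**
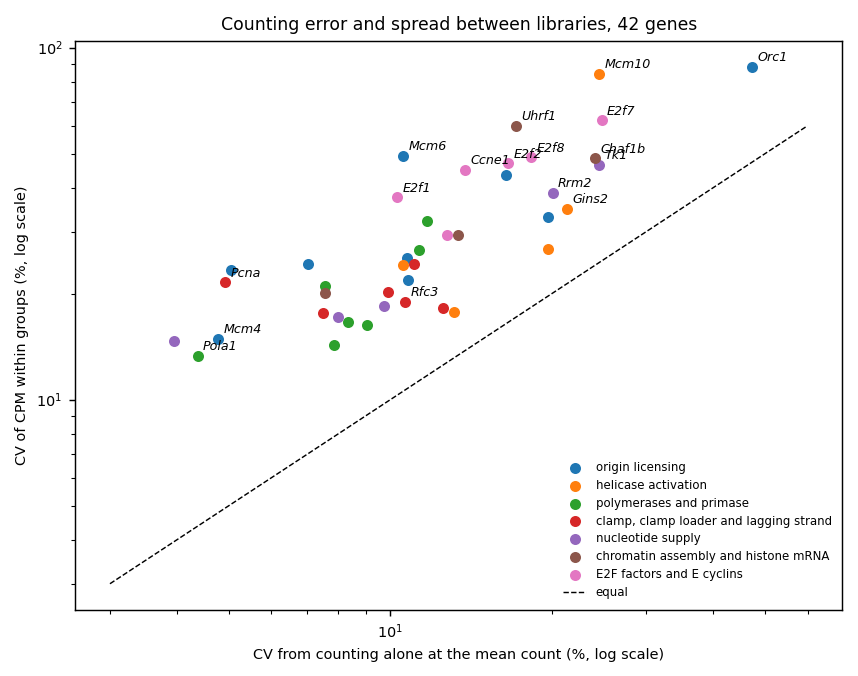
CV of CPM between libraries of the same group against the CV that counting alone gives at the gene's mean count, both in percent on log axes, 1 point for each of 42 genes coloured by role; the dashed line marks equality. All points lie above the line, from Pola1 at 13.3% to Orc1 at 88.4%.

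The variable genes were not only the scarce ones. E2f1, an activating E2F, had a median count of 86.5 and a within-group CV of 37.6%, and Mcm6 a median count of 88.5 and a CV of 49.3%. Mcm10 was variable through few libraries: it reached 4.23 CPM in library CDKi 3 and 2.69 in ERKi 3, both with liver transcripts, against a median of 0.827 CPM over all 24. CDKi 1, the other library with liver transcripts, held 1.08 CPM. Whether RNA of another tissue carried Mcm10 into those libraries was not tested.

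Against vehicle, no gene of the 41 tested passed an adjusted p of 0.05 under any treatment in the quasi-likelihood test of edgeR (Benjamini-Hochberg over 15385 genes). For ERKi, 0% of all genes passed (percent called), 18 of the 41 genes lay above 0 and 23 below, and 1 (Rfc3, at -0.34 ± 0.16) had an unadjusted p under 0.05 where 6.34% of all genes did. For CDKi, 0% of all genes passed, 19 lay above and 22 below, and 0 had an unadjusted p under 0.05 against 3.12% of all genes. For the combination 0.123% of all genes passed, 21 of the 41 lay above and 20 below, and 3 had an unadjusted p under 0.05, all lower (Rfc3, E2f8 and Uhrf1), where 6.58% of all genes did so in that direction and 11.5% in either. DESeq2 called 0, 0 and 2 of the 41 under ERKi, CDKi and the combination (0.0130%, 0.195% and 1.77% of all genes), and limma-voom called 0 in each (0%, 0.00650% and 0.0715%). The 3 comparisons share the vehicle libraries.

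The median log2 fold change over the 41 genes was -0.046 under ERKi, -0.011 under CDKi and 0.010 under the combination, beside 0.00024, -0.0068 and 0.036 over all genes. The 95% interval lay within 2-fold of no change for 32, 34 and 30 of the 41 genes in turn, and within 1.5-fold for 17, 21 and 16.

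**Figure D2:**
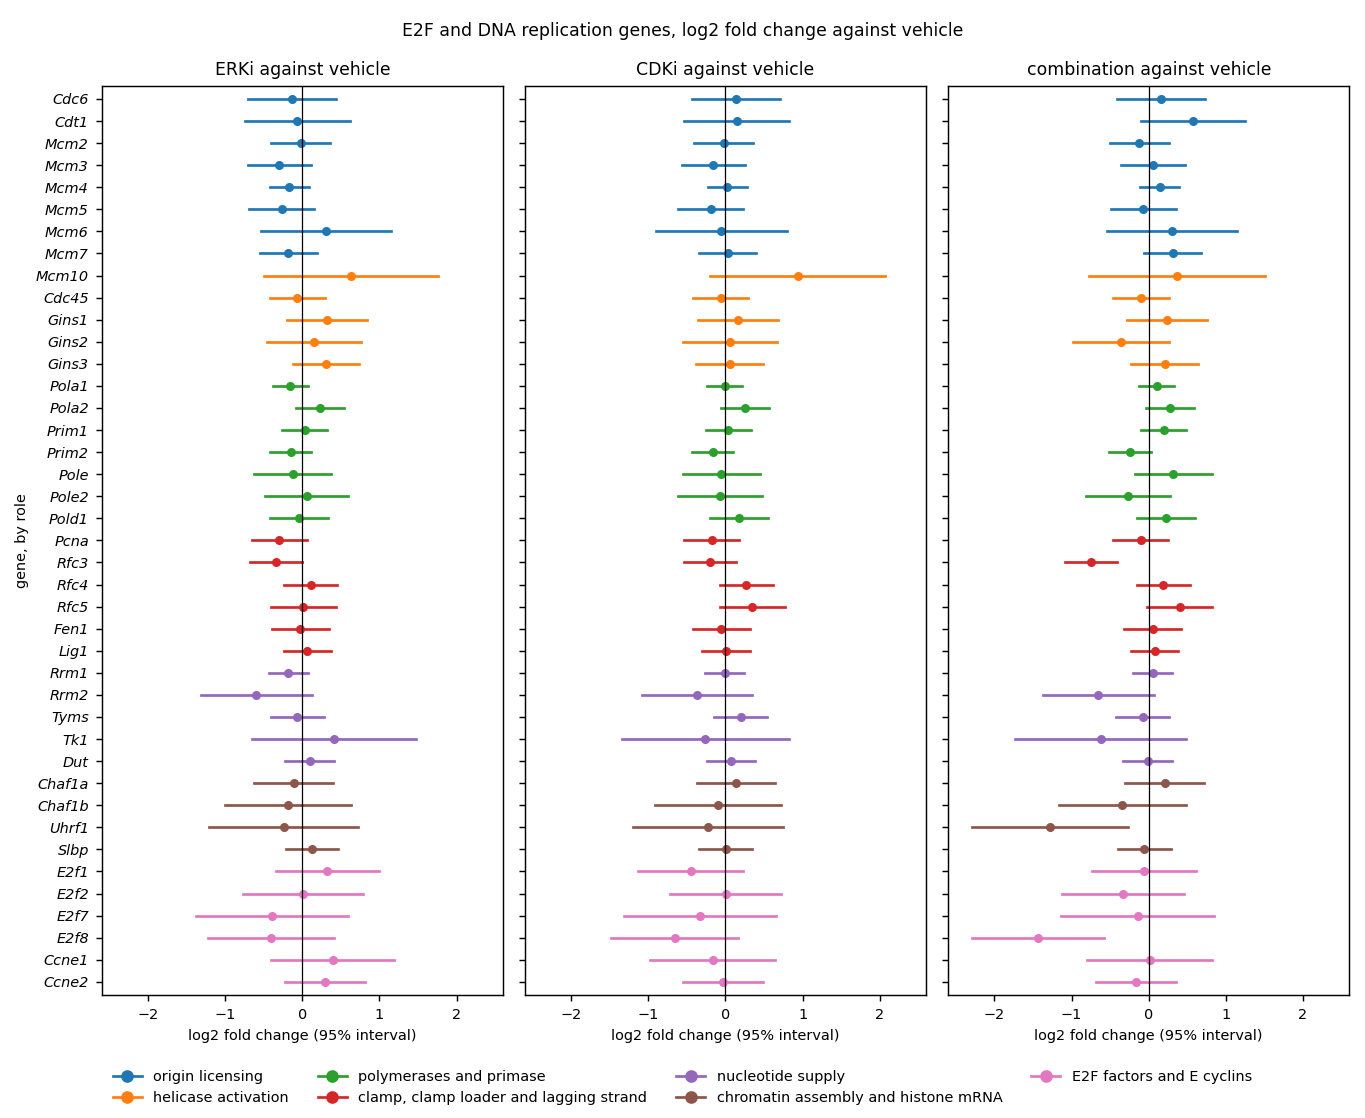
Log2 fold change against vehicle with its 95% interval (horizontal axis) for each of 41 tested genes (vertical axis, coloured by role) under ERKi, CDKi and the combination, 6 libraries a group. Intervals of most genes include 0; under the combination those of Rfc3, E2f8 and Uhrf1 lie below it.

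Origin licensing genes showed no call, with 8 of 9 tested. Mcm5, a subunit of the MCM helicase ring, had a lowest, median and highest library of 4.64, 5.33 and 6.93 CPM in vehicle, of 3.57, 4.57 and 6.01 under ERKi, of 4.16, 4.81 and 5.52 under CDKi and of 2.89, 4.77 and 8.92 under the combination. All groups overlap, and the combination holds both the lowest and the highest library; its log2 fold change was -0.07 ± 0.20 (SE; adjusted p = 0.934). Cdc6, a loader of the helicase, was at medians of 1.49, 1.39, 1.63 and 1.45 CPM in the order vehicle, ERKi, CDKi and combination. Cdt1, its partner, had medians of 1.87, 1.87, 2.35 and 2.21 CPM. In the combination 6 of 6 Cdt1 libraries, from 1.957 to 5.69 CPM, were above the vehicle mean of 1.954 CPM, the lowest of them barely. The vehicle libraries reached 3.37, so the groups overlap. The Cdt1 log2 fold change of 0.58 ± 0.33 did not pass in edgeR (adjusted p = 0.524).

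Helicase activation genes likewise overlapped between groups. Cdc45, the helicase's core partner, had medians of 3.44, 3.45, 3.37 and 3.15 CPM in the same order of groups, and its log2 fold changes against vehicle were -0.06 ± 0.17, -0.06 ± 0.17 and -0.10 ± 0.17. Mcm10 had medians of 0.796, 0.810, 0.944 and 0.989 CPM. Its fitted log2 fold change under CDKi, 0.93 ± 0.55 (adjusted p = 1.00), was the highest of the 41, with 4 of 6 libraries above the vehicle mean; over the alternative settings it ran from -0.68 to 2.59. The GINS subunits Gins1, Gins2 and Gins3 had log2 fold changes of 0.24, -0.36 and 0.20 under the combination, with no call. In Gins2, 67.3% of exon bases overlap Gse1 on the other strand, and the strand setting of the counting is not given, so its value is uncertain.

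The 7 polymerase genes had the narrowest intervals of any role. All 7 had intervals within 2-fold of vehicle under every treatment, and under the combination the log2 fold changes ran from -0.27 (Pole2) to 0.32 (Pole). Pola2, the regulatory subunit of the primase-coupled polymerase, had lowest, median and highest levels of 5.0, 6.77 and 9.15 CPM in vehicle, 7.78, 8.50 and 8.94 under ERKi, 5.55, 8.85 and 11.1 under CDKi and 7.61, 8.67 and 10.3 under the combination. The medians of the 3 treated groups were near each other and above vehicle, where vehicle 3, the shallowest library, was lowest, but the groups overlap; log2 fold changes of 0.23, 0.26 and 0.28 (SE 0.15 each) did not pass, with adjusted p of 0.672, 1.00 and 0.503. Pole2, a subunit of the leading-strand polymerase, had medians of 4.07, 4.54, 4.26 and 3.62 CPM.

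Among clamp and clamp loader genes Pcna lay near 0 under the combination, where Rfc3 was lowest. Pcna ranged around medians of 25.5, 19.5, 22.5 and 22.6 CPM, with a log2 fold change of -0.30 ± 0.17 under ERKi (adjusted p = 0.672) and -0.10 ± 0.17 under the combination (adjusted p = 0.884). Rfc3, a subunit of the complex that opens the clamp around DNA (chr5:151642756-151651242, GRCm38, minus strand), had a lowest, median and highest library of 4.89, 5.87 and 7.68 CPM in vehicle and of 2.71, 3.86 and 4.03 CPM in the combination. Every combination library was below every vehicle library, a pattern that 0.578% of all genes share in that direction. ERKi libraries held 4.07, 4.84 and 5.53 CPM and CDKi libraries 3.93, 5.2 and 7.09, and both single-drug groups overlap with vehicle.

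The Rfc3 log2 fold change of the combination was -0.75 ± 0.16, a level of 0.595 of vehicle with an interval of 0.470 to 0.754, and its adjusted p of 0.0690 in edgeR narrowly missed the threshold. DESeq2 gave an adjusted p of 0.00818 and limma-voom 0.134. The call also appeared in edgeR without vehicle 4 (adjusted p = 0.0328), without ERKi 3 (0.0478) and without the 3 libraries holding liver transcripts (0.0251). ERKi 3 and the libraries with liver transcripts are in neither group compared here. Leaving them out kept the change at -0.75 and altered only the fit that all groups share. Over 42 alternative settings the change ran from -0.81 to -0.67, below 0 in all, with adjusted p between 0.00818 and 0.998. These settings refit the same libraries, and many keep all vehicle and combination libraries, so the shared sign is no independent support. Within libraries whose titles start with 4 the change was -0.72 (edgeR adjusted p = 0.998), and with 5 it was -0.73 (0.337). These are parts of the same data, uneven over groups: of vehicle, only vehicle 1 and vehicle 2 have titles starting with 4. The other loader subunits lay above 0: Rfc4 was at 0.19 ± 0.17 and Rfc5 at 0.40 ± 0.20 (adjusted p = 0.465), the latter with 5 of 6 combination libraries above the vehicle mean.

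**Figure D3:**
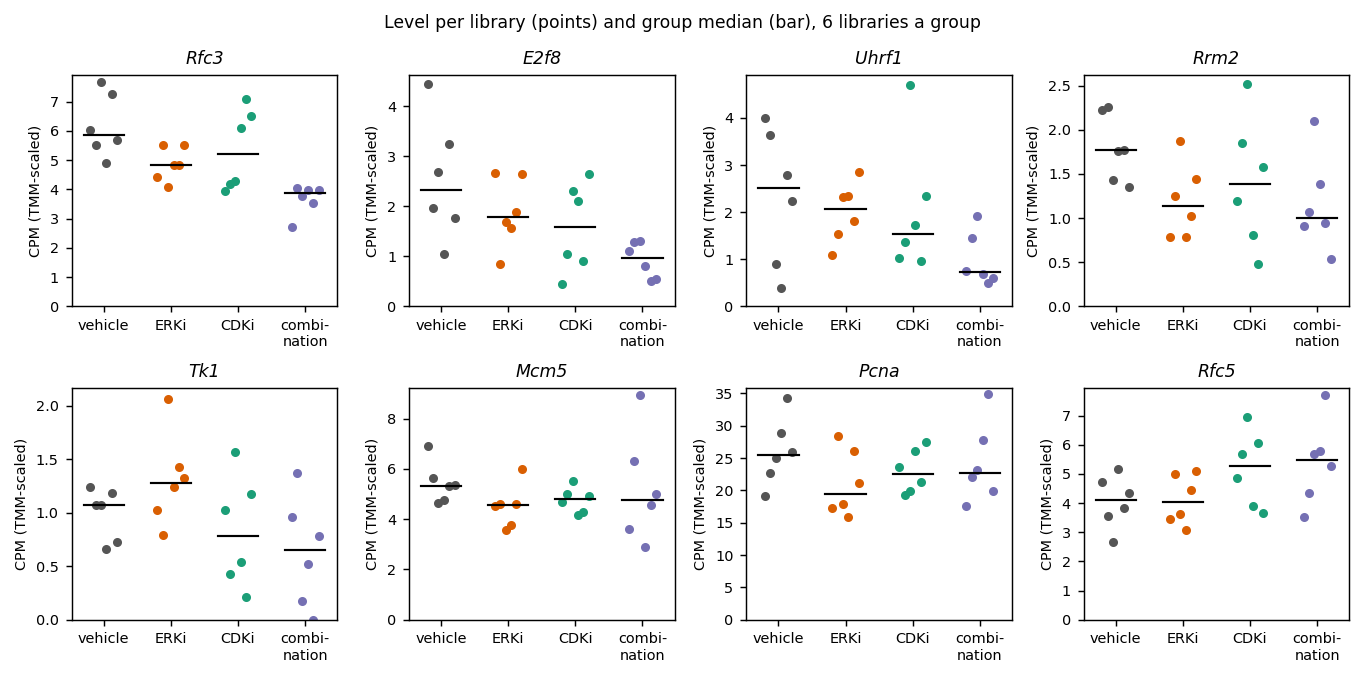
Level of 8 genes in every library (points, TMM-scaled CPM, axes from 0) and group medians (bars), 6 libraries for each of vehicle, ERKi, CDKi and combination. The 6 Rfc3 points of the combination, 2.71 to 4.03 CPM, lie below all vehicle points (4.89 to 7.68); in E2f8 and Uhrf1 the combination is low but overlaps vehicle.

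No nucleotide supply gene was called. Rrm1 had log2 fold changes of -0.01 ± 0.12 under CDKi and 0.05 ± 0.12 under the combination. Rrm2, the small and cell-cycle-limited subunit of the same enzyme, had a lowest, median and highest library of 1.35, 1.77 and 2.25 CPM in vehicle, 0.783, 1.14 and 1.88 under ERKi, 0.483, 1.39 and 2.52 under CDKi and 0.540, 1.01 and 2.10 under the combination. Treated medians were below vehicle, yet each treated group overlaps it; log2 fold changes were -0.59 ± 0.34, -0.37 ± 0.34 and -0.65 ± 0.35, with adjusted p of 0.672, 1.00 and 0.491. Tyms, which makes thymidylate, had medians of 6.18, 5.74, 7.55 and 5.67 CPM. Tk1 had medians of 1.07, 1.28, 0.783 and 0.650 CPM, and its combination value of -0.62 ± 0.53 (adjusted p = 0.724) had an interval from -1.73 to 0.48.

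Of the chromatin genes, Uhrf1, which brings the maintenance methyltransferase to new DNA, was low in the combination. Its lowest, median and highest library were 0.384, 2.51 and 4.0 CPM in vehicle, 1.09, 2.07 and 2.84 under ERKi, 0.966, 1.54 and 4.70 under CDKi and 0.505, 0.719 and 1.92 under the combination. The combination overlaps vehicle at vehicle 3 and at vehicle 4, which at 0.384 CPM was the lowest library of all 24. The log2 fold change was -1.28 ± 0.49 with 6 of 6 combination libraries below the vehicle mean, and it did not pass (edgeR adjusted p = 0.280, DESeq2 0.174, limma-voom 0.393). Chaf1a, of the chromatin assembly complex, and Slbp, which binds histone mRNA, were at 0.20 ± 0.25 and -0.06 ± 0.17. Of the exon bases of Chaf1a 52.5% overlap Ubxn6, and of those of Fen1, the flap nuclease, 84.2% overlap other genes, so both are uncertain.

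Among E2F factors and E cyclins, E2f8 had the largest difference of the 41 genes. Its lowest, median and highest library were 1.04, 2.33 and 4.44 CPM in vehicle, 0.852, 1.78 and 2.66 under ERKi, 0.456, 1.58 and 2.65 under CDKi and 0.505, 0.963 and 1.31 under the combination. All 6 combination libraries were below the vehicle mean, with an overlap at vehicle 4. The log2 fold change was -1.43 ± 0.41, a level of 0.371 of vehicle, at counts of 8 to 21 per combination library. It missed the threshold in edgeR (adjusted p = 0.142) and limma-voom (0.268) and passed in DESeq2 (0.0435), and over 42 alternative settings it ran from -1.80 to -0.62 with adjusted p between 0.0435 and 0.998. Without the 6 libraries with a low neuron mean it was -0.96 (edgeR adjusted p = 0.707). Within titles starting with 4 and 5, each with fewer libraries a group, it was -1.35 and -1.80 (edgeR adjusted p = 0.998 and 0.337). A transcript on the other strand, Gm2788, overlaps 11.2% of its exon bases.

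The activator E2f1 and the E cyclins lay nearer to 0. E2f1 had medians of 5.57, 6.45, 4.15 and 5.38 CPM, with a combination log2 fold change of -0.06 ± 0.33 (adjusted p = 0.964). Ccne1, which with CDK2 completes RB phosphorylation, had medians of 2.49, 3.25, 2.62 and 2.80 CPM and a log2 fold change of 0.01 ± 0.39. Ccne2, its close relative, had medians of 3.49, 3.64, 3.58 and 2.57 CPM and one of -0.17 ± 0.25. ERKi 3, with liver transcripts, held the highest level of all 3 genes (11.3, 6.45 and 6.70 CPM), and CDKi 5, with a low neuron mean, the lowest (1.61, 0.698 and 1.5 CPM). ERKi 3 also had the highest neuron mean (9.63 log2 CPM) and the lowest Schwann cell mean (8.88) of the 24 libraries. CDKi 5 had the highest means of the skeletal muscle list (5.39) and the adipocyte list (3.74). The other libraries with liver transcripts, CDKi 1 and CDKi 3, held E2f1 at 3.93 and 2.73 CPM. Whether tissue content shaped these values was not tested.

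The remaining contrasts asked what each drug added to the other. Combination against ERKi gave 0 calls among the 41 genes (0% of all genes were called) and 6 with an unadjusted p under 0.05, against 9.34% of all genes. Of these, Mcm7 (0.49 ± 0.18), Mcm4 (0.31 ± 0.12) and Pola1 (0.26 ± 0.11) were higher in the combination and Uhrf1 (-1.04 ± 0.49), E2f8 (-1.03 ± 0.41) and Rfc3 (-0.41 ± 0.16) lower, with adjusted p from 0.450 to 0.518. Rfc3 did not overlap here either, with a highest combination library of 4.03 and a lowest ERKi library of 4.07 CPM, as in 0.208% of all genes. Combination against CDKi gave 0 calls (0.00650% of all genes) and 2 with an unadjusted p under 0.05 against 7.07%: Rfc3 at -0.55 ± 0.16 and Uhrf1 at -1.05 ± 0.49. DESeq2 called 0 of the 41 in both (0.227% and 0.546% of all genes), as did limma-voom (0% in both).

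The interaction, which asks whether the effect of 1 drug differs with the other present, gave 0 calls among 41 (0% of all genes) and 0 with an unadjusted p under 0.05, where 3.69% of all genes had one; DESeq2 (0.331% of all genes) and limma-voom (0%) also called 0. For Rfc3 it was -0.21 ± 0.23, with an interval from -0.69 to 0.27, so a departure from additive effects was not detected. Its precision was lower, with 24 of 41 intervals within 2-fold.

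Setting the 12 libraries with CDKi, alone or in the combination, against the 12 without gave the narrowest intervals of the contrasts. No gene of the 41 passed in edgeR (0% of all genes did), DESeq2 (0.143%) or limma-voom (0%), and 4 had an unadjusted p under 0.05 in edgeR where 7.69% of all genes did. E2f8 was at -0.84 ± 0.29 (adjusted p = 0.476; 10 of 12 CDKi-treated libraries below the mean of the others) and Rfc3 at -0.30 ± 0.12 (0.548; 9 of 12). These values pool CDKi alone against vehicle (E2f8 -0.66, Rfc3 -0.20) with the combination against ERKi (-1.03 and -0.41). Rfc5 was at 0.37 ± 0.14 (0.554) and Mcm7 at 0.26 ± 0.13 (0.645), both higher in 9 of 12. The median over the 41 was 0.0025, beside -0.0093 over all genes, and 37 of 41 intervals lay within 2-fold of no change. All 6 E2F and E cyclin genes lay below 0, from -0.84 to -0.04, and 6 of 8 licensing genes lay above it.

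Other replication and E2F pathway genes, 55 tested of 59 listed, gave no call. None passed in edgeR under ERKi, CDKi or the combination, and under the combination their median was 0.057. There 7 of the 55 had an unadjusted p under 0.05, a share close to the 11.5% of all genes. The 2 smallest p were those of Donson, a replication fork protein, at 0.35 ± 0.11 (adjusted p = 0.175), and Tfdp2, a dimer partner of E2F factors, at 0.37 ± 0.12 (0.199). Pold4 was also higher. Lower were E2f3 (-0.41), the pocket protein gene Rbl1 (-0.33), the S and G2 cyclin Ccna2 (-0.81) and Rad51ap1 (-0.82). Rad51ap1 lay near the counting floor, with a median raw count of 9 over the 24 libraries and of 6.5 in the combination.

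Mitosis genes were mostly below vehicle, without a call. Of 29 tested, 22 lay below 0 under ERKi, 23 under CDKi and 28 under the combination, and the medians were -0.20, -0.27 and -0.64, with 0 called and 0, 0 and 12 at an unadjusted p under 0.05. Of those 12, 11 were lower and 1 higher, where 11.5% of all genes had such a p in either direction. The higher one was Bub1b, a spindle checkpoint kinase named after its value was seen, at 1.08 ± 0.42 with 6 of 6 combination libraries above the vehicle mean. Mki67, a protein of cycling cells, had median levels of 17, 9.87, 9.06 and 3.67 CPM in vehicle, ERKi, CDKi and combination, and its combination log2 fold change was -1.75 ± 0.53 (adjusted p = 0.162). Top2a, which untangles chromosomes, was at -1.51 ± 0.62 (adjusted p = 0.333). Whether mitosis and replication genes differ in their response was not tested.

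A separate fit asked which replication genes follow mitosis transcripts from library to library once group means are removed. For each gene the slope is the log2 change per unit of the library's mean log2 CPM over the mitosis list. Of the 41 genes 3 passed (adjusted p under 0.05 over all genes), all with a slope above 0, where 2.19% of all genes did so: E2f8 at 1.06 ± 0.22 (adjusted p = 0.0132), Uhrf1 at 1.25 ± 0.27 (0.0165) and E2f2, an activating E2F, at 0.84 ± 0.20 (0.0247). In all 9 had an unadjusted p under 0.05, all above 0, where 9.85% of all genes had one in that direction. Pole2 (0.56 ± 0.16, adjusted p = 0.0541) and Rrm2 (0.63 ± 0.22, 0.130) followed. Ccna2, of the other pathway genes, had a slope of 1.17 ± 0.14.

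**Figure D4:**
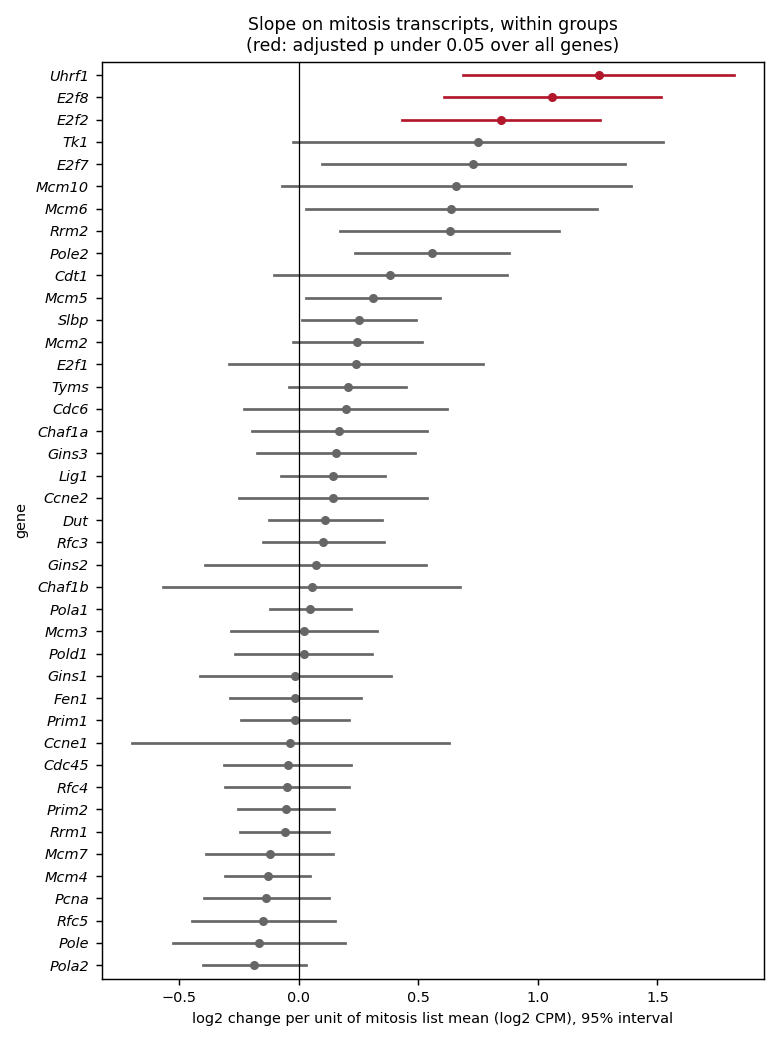
Slope of each of 41 genes (vertical axis) on the library's mean of the mitosis list, as log2 change per unit with its 95% interval (horizontal axis), from 24 libraries with group means removed; red marks an adjusted p under 0.05. E2f8, Uhrf1 and E2f2 are red, and the slopes of the other 38 genes did not pass.

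Several abundant replication genes had slopes near 0. The slope was -0.14 ± 0.13 for Pcna, -0.13 ± 0.09 for Mcm4, -0.12 ± 0.13 for Mcm7 and -0.06 ± 0.09 for Rrm1. Their intervals were -0.40 to 0.13, -0.31 to 0.05, -0.39 to 0.14 and -0.25 to 0.13. Not only scarce genes had higher slopes: Mcm6 was at 0.64 ± 0.29, Mcm5 at 0.31 ± 0.14 and Slbp at 0.25 ± 0.11. Their median counts were 88.5, 81 and 160.5, and none of the 3 passed (edgeR adjusted p = 0.265, 0.233 and 0.256). The slope of Rfc3 was 0.10 ± 0.12. Over the 41 genes the median slope was 0.11, beside -0.014 over all genes, and the highest median of a role was that of the E2F factors and E cyclins (0.48).

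**Figure D5:**
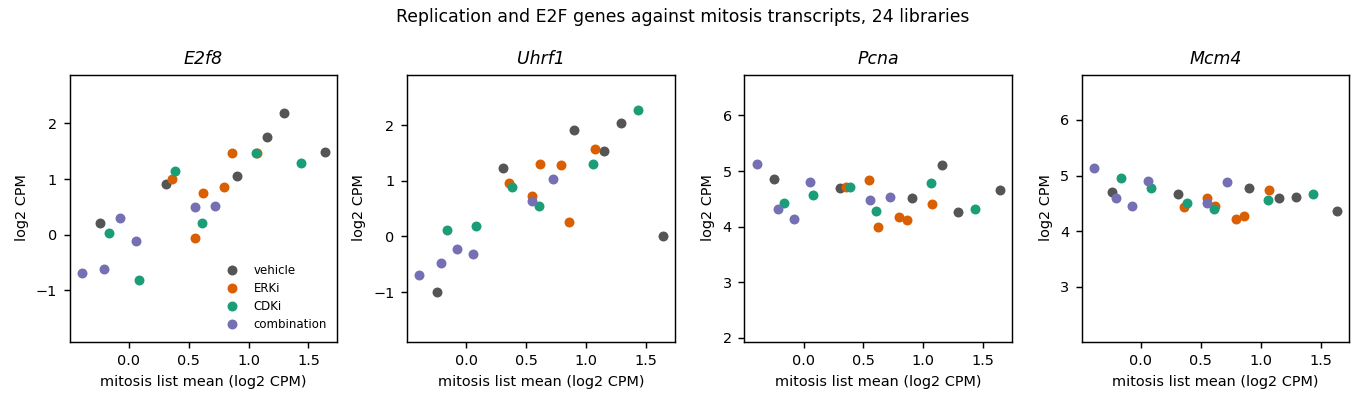
Log2 CPM of E2f8, Uhrf1, Pcna and Mcm4 (vertical axes, equal spans) against the library's mean log2 CPM of the mitosis list (horizontal axis), 24 points coloured by group. E2f8 and Uhrf1 climb with the list mean, with fitted slopes of 1.06 and 1.25, while Pcna (-0.14) and Mcm4 (-0.13) do not.

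These slope calls depended on which libraries and which other transcripts entered the fit. Without CDKi 3, which holds liver transcripts and the highest CDKi mitosis mean, E2f8 alone passed, with Uhrf1 at an adjusted p of 0.0662 and E2f2 at 0.0653. Uhrf1 also missed without vehicle 4 (0.0585) and without the 3 libraries holding liver transcripts (0.0785), and E2f2 without vehicle 3 (0.0527). Pole2 passed without ERKi 1, ERKi 2, ERKi 3 or CDKi 5 (0.0297 to 0.0483). It also passed with no count filter (0.0381) and with the neuron list (0.0450) or the liver list (0.0332) as a further covariate. With the macrophage list as a further covariate E2f8 alone passed, and with Cd3e, a T cell gene, none did (E2f8 0.0911). E2f2 also missed with log2 library size (0.108) or the liver list (0.0717; 2 of its 10 genes passed the count filter) as a further covariate, without the 3 libraries holding liver transcripts (0.0660), with Mki67 in place of the mitosis list (0.0611) and without the deepest and the shallowest library (0.0511). Slopes of E2f8 were above 0 in all 36 alternatives, which refit the same libraries. Cd3e was the only 1 of 6 T and B lymphocyte genes to pass the count filter. It was at 0.120 to 2.54 CPM, and its log2 CPM ran from -1.35 to 0.44 in vehicle and from -2.09 to 1.41 in the combination. Cd79a, a B cell gene, was at 0 to 0.438 CPM. The mean of 6 macrophage genes ran from 5.37 to 5.73 in vehicle and from 4.38 to 6.10 in the combination.

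Mitosis transcripts were low beside the low combination values of E2f8 and Uhrf1. The list mean was lowest, median and highest at -0.24, 1.03 and 1.64 log2 CPM in vehicle and at -0.39, -0.0099 and 0.72 in the combination. That mean was added as a covariate after seeing the data. The combination log2 fold change was then -0.62 for E2f8 and -0.42 for Uhrf1, in place of -1.43 and -1.28. That of Rfc3 was -0.67 in place of -0.75. E2f8 and Uhrf1 had been called for a slope on this same list, and the list mean was itself lower in the combination. Their values therefore had to shrink in this fit, and the part of mitosis transcripts was not tested. The mean of 6 nerve fibroblast genes had a median of 10.2 in vehicle (9.34 to 10.6) and of 8.97 in the combination (8.35 to 9.69), and its part in these values was not tested. The mean of the adipocyte list had medians of 0.78 in vehicle, 2.68 under ERKi, 2.93 under CDKi and 2.35 under the combination, and with it as a covariate the combination log2 fold change was -1.30 for E2f8, -1.26 for Uhrf1 and -0.81 for Rfc3. The mean of the endothelial list had a median of 4.38 in vehicle and 4.93 in the combination, and its part was not tested. The mean of the skeletal muscle list had medians of -0.10, -0.05, -0.08 and 0.69 in vehicle, ERKi, CDKi and combination. Its highest library was at 0.44, 2.80, 5.39 and 2.79 in the same order, and its part was not tested.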

How the data were processed

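The file the authors deposited holds raw read counts by gene, 1 column per library. STAR, FastQC and DESeq2, with build mm10, come from the submitters' processing notes; which program, annotation and strand option did the counting is not given in the sources used here. Per the labels' protocols, ribosomal RNA was removed, though the molecule label reads polyA RNA. Groups came from the treatment labels. No pair of libraries in a group was a repeat within sampling noise (lowest chi-square per degree of freedom 19.8, 60 pairs). The members and gene lists were chosen with earlier results of these data known.

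In R 4.3.3, edgeR 4.0.16 (filterByExpr with minimum count 10 and total 15, TMM, robust quasi-likelihood) was fitted to 15385 genes in 24 libraries with a mean per group (20 residual degrees of freedom, biological CV 35.9%), and p-values, two-sided, were Benjamini-Hochberg adjusted over all genes, threshold 0.05. SE was taken as log2 fold change over √F. Alternatives included DESeq2 1.42.0 and limma-voom (limma 3.58.1), other scalings and filters, list covariates and libraries left out; mitosis, macrophage and Cd3e covariates of the contrasts, and macrophage, Cd3e, liver and depth covariates of the slope, were added after seeing the data. CPM are TMM-scaled, log2 CPM of libraries used a prior count of 2, and lengths are GENCODE M21 exon unions (GRCm38). Floors cover counting error only. Scripts were tested on simulated counts. Described by library were Mcm5, Cdc6, Cdt1, Cdc45, Pole2, Pcna, Rrm2, Tyms, Tk1, Uhrf1, Ccne1, Ccne2, E2f1 and E2f8, the 3 members of smallest p per comparison with vehicle and for CDKi, and members near the floor.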

Additional observations from a re-analysis of the deposited data

Results flagged for a closer look

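The 18 genes described by library, the mean of the tested genes and the mitosis mean gave 80 groups of 6 libraries, and in 4 of them 1 library stood apart from the nearest other by more of the group's whole range in log2 CPM than Dixon's 95% limit for 6 values, and chance alone flags about 1 in 20 groups, which is 4. Cdc45 was low in ERKi 3, at 2.19 CPM with the nearest library at 3.24, a share of 0.673 of the range. Ccne2 was low in CDKi 5, at 1.5 CPM with the nearest at 3.07 (0.633). Rfc3 was low in combination 1, at 2.71 CPM with the nearest at 3.54 (0.667), so the combination's level without that library was 3.54 to 4.03 CPM, still below every vehicle library. Mcm10 was high in ERKi 3, at 2.69 CPM with the nearest at 1.04 (0.649). No gene described here had an interaction of the drugs that passed, so none was flagged for a difference between groups.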

How the results depend on the processing

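No paired analysis was possible because the labels carry no replicate numbers. Under all alternatives 0 of the 41 genes were called for ERKi, for CDKi, for the combination against either drug, for the interaction and for CDKi in 12 against 12. For the combination against vehicle the 0 calls became 2 with DESeq2 and 1 without the libraries holding liver transcripts, and 0 to 1 when 1 library was left out. Medians over the 41 genes stayed within the spread between libraries (SD 0.13 log2), except combination against ERKi without the neuron-poor libraries, -0.14 in place of -0.012. The 3 slope calls became 1 without the liver libraries, 1 with the macrophage covariate, 0 with the Cd3e covariate, and 1 to 4 with 1 library left out. The cause was not tested. Counting error was largest for Orc1, at 47.4%, and vehicle 3 is the shallowest library; in all 42 genes the spread between libraries exceeded counting error.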
